A study of Mus musculus with 5 samples.

Results

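Natural killer (NK) cells read their surroundings through receptors that are encoded in the germ line, and 10 of the genes for such receptors are described here: Ncr1, Klrb1c, Klre1, Klra8, Klra4, Klra7, Klrc1, Klrk1, Klrd1 and Klrg1. They were chosen by symbol, and each symbol matched 1 of the 32285 genes of the expression libraries. A further 17 genes of the files carry a symbol that starts with Klr. The question put to the data was which of the 10 were found in NK cells and in CD8, CD4 and gamma-delta T cells, and which were found in the same cells. No rule on expression values was used in the choice, but earlier results of these data were known when it was made.

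The mice were BALB/c, 6 weeks old, and carried CT26, a mouse colon carcinoma line, under the skin. One group received 100 µg of clone 9H10, an antibody against the T cell inhibitory receptor CTLA-4, into the peritoneum on days 5, 8 and 11, and the control group received phosphate-buffered saline. Material was collected on day 13, and the labels name it as tissue without saying which, although a kit for dissociating tumours was used. Each treatment gave 1 droplet library of 5' gene expression and 1 of T cell receptor (TCR) sequences, and a B cell receptor library of the antibody group was not used here. How many mice stand behind a library is not stated in the labels. With 1 library per group there was no test across samples, and every interval below is an exact 95% interval that covers counting error only, not differences between mice or preparations.

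Most of the 10 genes encode type II membrane proteins with a C-type lectin-like domain. Klrd1 (CD94) pairs with Klrc1 (NKG2A) to form an inhibitory receptor for the non-classical class I molecule Qa-1, encoded by H2-T23. Klrk1 (NKG2D) is an activating receptor for stress-induced ligands and signals through the adapter Hcst. The Klra genes encode the Ly49 receptors, many of which bind classical class I molecules: Klra7 (Ly49G) is inhibitory, whereas Klra4 (Ly49D) and Klra8 (Ly49H) signal through the adapter Tyrobp. Klrb1c encodes NK1.1, an antigen by which NK cells of C57BL/6 mice are sorted. Klre1 forms heterodimers with Klri1 or Klri2, and Klrg1 binds cadherins and is inhibitory. Ncr1 (NKp46) is the exception in structure, an activating receptor with immunoglobulin-like domains.

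In GRCm38, Ncr1 lies on chromosome 7 (4337724 to 4345164, plus strand). The other members lie on chromosome 6. Klrg1 stands apart at 122270596 to 122282882, and the remaining members lie between the start of Klrb1c at 128778485 and the end of Klra7 at 130233322. Klre1 and Klrd1 are on the plus strand and the others on the minus strand. The files list Ncr1 as ENSMUSG00000062524, Klrc1 as ENSMUSG00000030167, Klrk1 as ENSMUSG00000030149, Klrd1 as ENSMUSG00000030165 and Klrg1 as ENSMUSG00000030114.

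The Ly49 genes are close copies of each other, which bears on how their reads can be assigned. The first 90 coding bases of the 3 Ly49 members and of Klra3, the Ly49 gene that gave the most unique molecular identifiers (UMIs) in NK cells, are shown because a 5' library samples this end of the transcript. They are spliced coding sequence of the GENCODE M21 annotation on GRCm38, 5' to 3', and capitals mark the bases that differ from Klra7.
Klra7: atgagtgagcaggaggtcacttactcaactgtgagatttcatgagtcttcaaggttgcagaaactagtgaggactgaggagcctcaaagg
Klra4: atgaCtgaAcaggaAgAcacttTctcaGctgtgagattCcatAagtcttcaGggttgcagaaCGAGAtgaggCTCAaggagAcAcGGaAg
Klra8: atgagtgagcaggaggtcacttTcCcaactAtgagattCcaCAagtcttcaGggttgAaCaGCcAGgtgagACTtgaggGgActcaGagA
Klra3: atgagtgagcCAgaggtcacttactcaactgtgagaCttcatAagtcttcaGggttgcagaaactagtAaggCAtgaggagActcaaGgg
The start codons begin at 130231617 (Klra7), 130065302 (Klra4), 130128160 (Klra8) and 130335799 (Klra3) on the minus strand of chromosome 6. Klra4 differed from Klra7 at 23 of the 90 bases, Klra8 at 20 and Klra3 at 10. Over the first 300 windows of 50 bases of each transcript, 66% of the Klra8 windows were also found in a transcript of another gene of chromosome 6 or 7, against 0.333% for Klra4 and 0 for Klra7. Klrc1 shared 40.3% of all its windows, mainly with Klrc2, but 0 of its first 300. Klrb1c shared 18.1% of all its windows and 22.3% of its first 300, mainly with Gm44511. Ncr1, Klre1, Klrk1, Klrd1 and Klrg1 shared none. Counts of Klra8 and Klrb1c could thus be split with other genes. Those of all 3 Klra members are uncertain for another reason, since the reference strain is C57BL/6J and the Ly49 genes differ between strains.

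Of the 10 promoters, 8 were in the RefSeq table for GRCm38.p6, without Klrd1 and Klrg1. The RUNX core TGTGGT, searched on both strands, occurred in 5 of these 8 (Ncr1, Klrb1c, Klre1, Klrc1 and Klrk1), and in 16.9% of 27025 promoters of the same 300 bases. The 3 Ly49 promoters had no match. A T-box core, AGGTGT, occurred in 0 of 8 and in 13.9% of all promoters. The 250 bases before the start are shown for Ncr1, found almost only in NK cells below, and for Klrc1, shared between NK and CD8 T cells, from RefSeq with the RUNX core in capitals. They are at chr7:4337465-4337714 (plus strand) and chr6:129678974-129679223 (minus strand).
Ncr1: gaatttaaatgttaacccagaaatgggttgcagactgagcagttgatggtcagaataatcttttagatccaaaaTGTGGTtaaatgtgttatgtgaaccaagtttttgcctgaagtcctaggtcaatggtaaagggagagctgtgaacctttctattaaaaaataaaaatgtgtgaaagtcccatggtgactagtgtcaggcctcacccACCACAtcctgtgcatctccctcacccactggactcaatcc
Klrc1: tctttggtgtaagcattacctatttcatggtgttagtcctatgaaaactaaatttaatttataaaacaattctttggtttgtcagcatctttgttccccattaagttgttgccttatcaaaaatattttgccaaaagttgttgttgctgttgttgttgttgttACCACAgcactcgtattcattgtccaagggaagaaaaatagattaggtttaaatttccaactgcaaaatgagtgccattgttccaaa
A match describes these letters only and is not evidence that a factor binds.

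The control expression library held 5649 barcodes with a median of 6827 UMIs, and the anti-CTLA-4 library 4186 barcodes with a median of 3147.5. After filtering, 5242 and 3950 cells were kept, and 18 of their barcodes occurred in both libraries. Cell classes were rebuilt from markers that hold none of the 10 genes, and neither these genes nor any other Klr gene shaped the clusters. The NK-like class had 229 control and 105 anti-CTLA-4 cells, with medians of 2971 and 3230 UMIs. CD8 T cells numbered 68 and 652 (medians 2614 and 4126.5), CD4 T cells 73 and 591 (2171 and 3593), and gamma-delta T cells 4 and 21. T cells in which neither Cd4 nor Cd8 was detected, or both were, form a further class of 237 and 870 cells. CD8 T cells of both libraries came mainly from clusters 3 and 8, which held 24 and 22 of the 68 control cells and 269 and 291 of the 652 anti-CTLA-4 cells.

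The NK-like class is described here by its markers. The NK and T cell lists were also used to name the clusters, so their values are not a separate check. In control NK-like cells all 10 NK markers had a UMI in at least 20% of cells, and in the anti-CTLA-4 library 9 did. Their summed level was 189 and 99.5 UMIs per 10000, against 22.0 and 23.2 in CD8 T cells. Of 10 T cell markers, 4 and 5 passed 20% of NK-like cells, with summed levels of 10.6 and 14.0 against 42.7 and 41.2 in CD8 T cells. Cd8a and Cd8b1 together stood at 0 and 0.0997 there. A Cd3 UMI was present in 23 cells of each NK-like group and a TCR contig in 5 of each. The anti-CTLA-4 group was the smaller one (105 cells against 229), so such cells weighed more in it. Calls between libraries for the 10 receptor genes that change without these cells are given both ways. For the other gene lists, values without these cells are not given, and the part of these cells in their ratios was not tested.

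NK-like cells carried several of the receptors at once. At least 1 of the 10 was detected in 94.3% of the NK-like cells of the control (90.5 to 96.9) and, with anti-CTLA-4, in 96.2% (90.5 to 99.0), with a mean of 3.14 and 2.98 genes per cell and at most 7 and 6. At least 2 were found in 78.2% and 83.8%. The CD8 T cells had a mean of 1.22 and 1.19 and the CD4 T cells 0.370 and 0.431. Because depth differs between classes, each cell was also reduced to 1000 UMIs, as the mean over all possible draws. At that depth the mean was 1.45 and 1.42 genes per NK-like cell, 0.573 and 0.551 per CD8 T cell and 0.166 and 0.174 per CD4 T cell, and 79.1% of NK-like cells of either library held at least 1. The 2 libraries thus differed little in how many receptors were seen per NK-like cell, and NK-like cells stood above both T cell classes at equal depth.

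B-like cells served as the background for free RNA. None of 72 control B-like cells (median 1778.5 UMIs) had a UMI of any member, a count that allows up to 4.17%. In 619 anti-CTLA-4 B-like cells (median 2884 UMIs) the highest share was 0.323%, for Klrk1. In the 2913 control cells without Ptprc, whose median depth was 24323 UMIs, no member passed 0.206%. Shares well above these levels in T and NK-like cells are therefore not of the size seen in cells that should lack the receptors. Monocyte/macrophage-like cells were also planned as background. Over both libraries 7.98% of them held Klrk1, against 7.83% of CD4 T cells. For Klrk1 in CD4 T cells the statement thus holds only against B-like cells and cells without Ptprc.

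**Figure D1:**
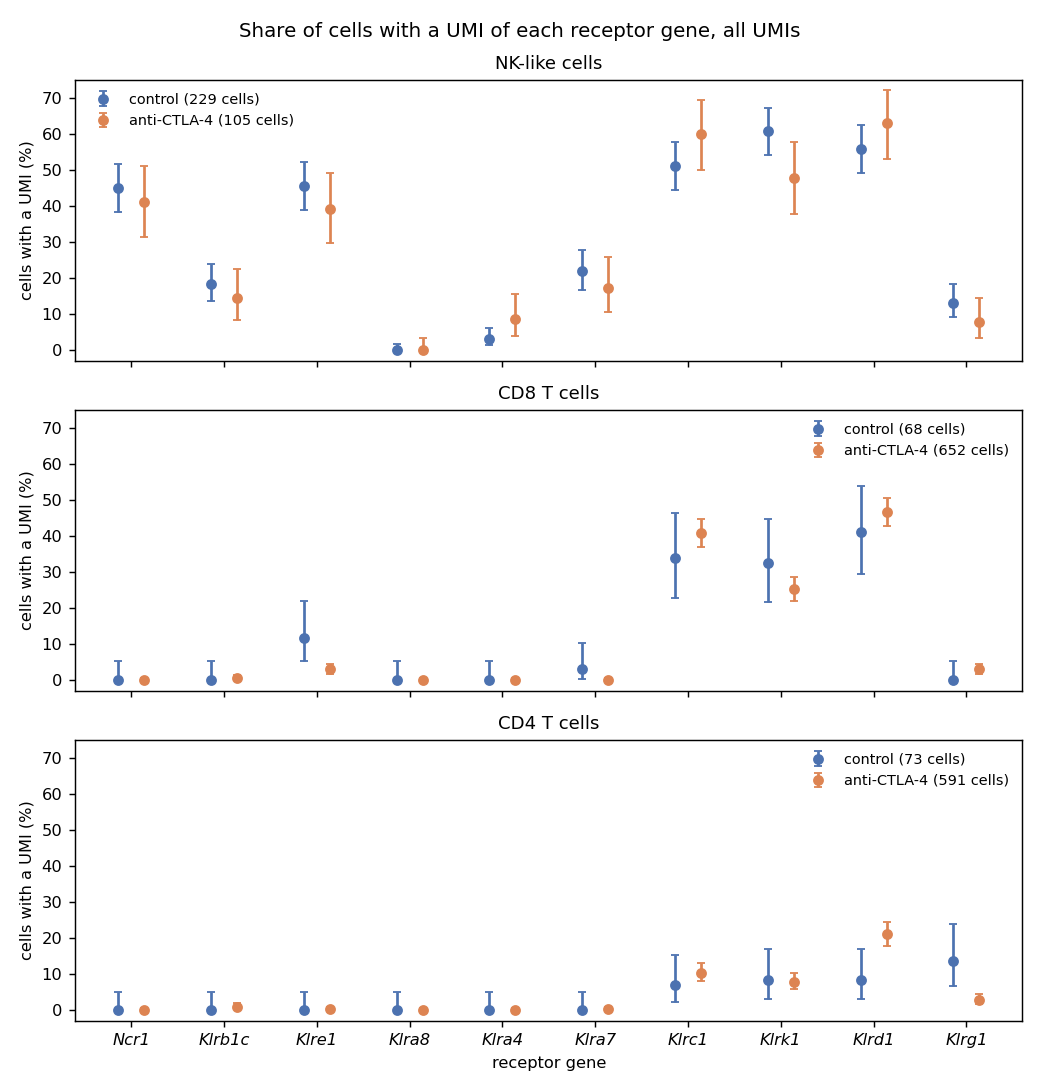
Share of cells with a UMI of each receptor gene (vertical axis, %) in NK-like, CD8 T and CD4 T cells, for control and anti-CTLA-4 libraries. Points are shares over all UMIs and bars are exact 95% intervals that cover counting error only. Ncr1 stands at 45% and 41.0% in NK-like cells and at 0 in CD8 and CD4 T cells, while Klrc1 and Klrd1 stand high in NK-like and CD8 T cells alike.

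In NK-like cells, Klrd1, the CD94 gene, was detected in 128 of 229 control cells (55.9%, 49.2 to 62.4) and 66 of 105 anti-CTLA-4 cells (62.9%, 52.9 to 72.1). Its partner Klrc1 was detected in 117 (51.1%, 44.4 to 57.7) and 63 (60%, 50 to 69.4). The intervals of the libraries overlapped for both genes.

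Klrk1 was found in 139 control NK-like cells (60.7%, 54.0 to 67.1) and 50 anti-CTLA-4 NK-like cells (47.6%, 37.8 to 57.6). Ncr1 was found in 103 (45%, 38.4 to 51.7) and 43 (41.0%, 31.5 to 51.0). Klre1 was found in 104 (45.4%, 38.8 to 52.1) and 41 (39.0%, 29.7 to 49.1). These 3 genes had lower point shares with anti-CTLA-4, again with overlapping intervals. Klrb1c was seen in 18.3% (13.5 to 24.0) and 14.3% (8.22 to 22.5), although its level does not speak to NK1.1 protein, since the common antibody to NK1.1 does not recognise the BALB/c form. Klrg1 was seen in 13.1% (9.02 to 18.2) and 7.62% (3.35 to 14.5).

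The Ly49 members differed among themselves. Klra7 was detected in 50 control NK-like cells (21.8%, 16.7 to 27.8) and 18 anti-CTLA-4 NK-like cells (17.1%, 10.5 to 25.7). Klra4 was detected in 7 (3.06%, 1.24 to 6.20) and 9 (8.57%, 3.99 to 15.6). Klra8 had no UMI in any of the 9192 kept cells, which allows a share of up to 0.0326%. As background, the Ly49 cluster of BALB/c mice is known to lack the genes for Ly49H and Ly49D, so the few Klra4 UMIs, 7 and 13, need not come from a Klra4 gene. Their origin was not tested.

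Levels, as UMIs per 10000 of the class, were compared between classes. The summed level of the members was 18.3 in control and 17.4 in anti-CTLA-4 NK-like cells, against 9.96 and 8.27 in CD8 T cells, 2.50 and 2.44 in CD4 T cells and 3.75 in the anti-CTLA-4 gamma-delta T cells.

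Ncr1 separated NK-like cells from CD8 and CD4 T cells in both libraries. It had 241 and 101 UMIs in NK-like cells and 0 in CD8 and in CD4 T cells, so its level was at least 25.3-fold (control) and at least 265-fold (anti-CTLA-4) above CD8 T cells when 0 is replaced by 3 UMIs over the class. The further class of T cells had Ncr1 in 3 of 237 and 4 of 870 cells, with 8 and 15 UMIs. Klra7 was 10.8-fold above control CD8 T cells (4.55 to 33.8) and at least 123-fold above anti-CTLA-4 CD8 T cells. Klre1 was 3.24-fold higher in the control (1.97 to 5.69) and 19.1-fold higher with anti-CTLA-4 (11.9 to 31.4).

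Klrc1 and Klrd1 did not separate NK-like from CD8 T cells. The NK-like level of Klrc1 over the CD8 level was 0.989 (0.791 to 1.25) in the control and 1.25 (1.08 to 1.44) with anti-CTLA-4. For Klrd1 it was 0.854 (0.666 to 1.10) and 1.15 (0.938 to 1.39). Klrk1 lay between, at 1.64 (1.21 to 2.27) and 2.66 (2.09 to 3.36). For both genes of the receptor for Qa-1 the ratios thus ran from 0.854 to 1.25, and only the anti-CTLA-4 Klrc1 interval left out 1. The CD8 level averages unlike cells. With anti-CTLA-4, Klrc1 stood at 9.71 UMIs per 10000 in CD8 T cells of expanded and 0.902 in those of unexpanded clonotypes, which are defined below.

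Within NK-like cells the partners of the CD94/NKG2A heterodimer showed no clear tendency to be found in the same cells. Klrd1 was detected in 59.8% of control NK-like cells with Klrc1 (50.4 to 68.8) and in 51.8% of those without (42.1 to 61.3). With anti-CTLA-4 it was 63.5% (50.4 to 75.3) against 61.9% (45.6 to 76.4). At 1000 UMIs the order was the other way, 21.4% against 26.1% and 23.9% against 28.6%. A gap between cells with and without Klrc1 was not detectable at this depth.

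In T cells the same 2 genes went together. Klrd1 was found in 91.3% of control CD8 T cells with Klrc1 (21 of 23, 72 to 98.9) and in 15.6% of those without (6.49 to 29.5). With anti-CTLA-4 it was 71.1% (65.2 to 76.4) against 29.8% (25.3 to 34.6), and at 1000 UMIs 35.2% against 14.1%. In anti-CTLA-4 CD4 T cells it was 82.0% (70.0 to 90.6) against 14.0% (11.1 to 17.2). Within single clusters the anti-CTLA-4 gap was smaller. In cluster 3 of that library, led by Cxcr6 and Ccl5, Klrd1 was in 72.6% of 241 CD8 T cells with Klrc1 (66.5 to 78.1) and in 50% of 28 without (30.6 to 69.4). Within cluster 8 it was 56.0% of 25 (34.9 to 75.6) against 33.8% of 266 (28.2 to 39.9). The order held in both clusters, and the intervals overlapped. In the control, with few cells, the gap was as wide within clusters as over all CD8 T cells. It was 88.9% of 18 cells (65.3 to 98.6) against 16.7% of 6 (0.421 to 64.1) in cluster 3, and 100% of 5 (47.8 to 100) against 17.6% of 17 (3.8 to 43.4) in cluster 8.

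**Figure D2:**
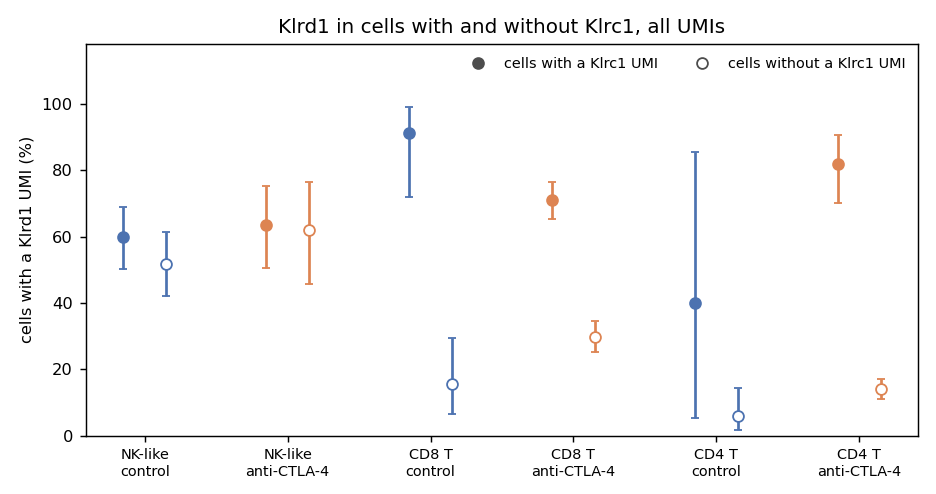
Share of cells with a Klrd1 UMI (vertical axis, %) among cells with a Klrc1 UMI (filled points) and without one (open points), by class and library, with exact 95% intervals for counting error. Filled and open points lie close together in NK-like cells (59.8% and 51.8% in the control) and far apart in CD8 T cells (91.3% and 15.6%).

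Other pairs were mixed. At 1000 UMIs, the second gene was more frequent in cells with the first for 23 of 36 pairs in NK-like cells of each library, and less frequent for 13. For the 15 pairs of anti-CTLA-4 CD8 T cells it was 12 and 3. Klra7 with Klrc1 was among the lower pairs. Klra7 was found in 18.8% of control NK-like cells with Klrc1 (12.2 to 27.1) and 25.0% without (17.3 to 34.1). With anti-CTLA-4 it was 9.52% (3.58 to 19.6) against 28.6% (15.7 to 44.6), and at 1000 UMIs 7.97% against 15.2% and 4.79% against 12.6%. Cells with the Ly49 gene held the NKG2A gene less often in both libraries, and the intervals overlapped in both. Ncr1 with Klrc1 showed the reverse order, at 62.4% of control cells with Klrc1 (53.0 to 71.2) and 26.8% of those without (18.9 to 36.0), and 27.3% against 17.9% at 1000 UMIs. In the anti-CTLA-4 library this was 46.0% against 33.3%, and 19.9% against 18.0% at 1000 UMIs.

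NK-like cells were not 1 state, and the libraries filled the states differently. Clustered again without the receptor genes, they gave 6 subclusters. Subcluster 0 (75 control and 5 anti-CTLA-4 cells) was led by Crabp1 and Ctsl and had a median of 2111 UMIs, and subcluster 1 (77 and 3) was led by Gzmd, Gzme and Stmn1 and had 5439. Subcluster 2 (11 and 52) was led by Ccl5 and Eomes, and subcluster 3 (33 and 18) by heat shock genes, Ifng and Ccl4. Subcluster 4 (21 and 27) was led by Cd3e, Cd3g and Cxcr6 and held 17 cells with a Cd3 UMI and 5 with a contig. Subcluster 5 held 12 control cells, led by Cd74 and H2-Aa.

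At 1000 UMIs the mean number of receptor genes per cell was between 1.32 and 1.70 in these subclusters, highest in subcluster 3. Over all UMIs, the deep subcluster 1 had Klrd1 in 72.7% and Klre1 in 58.4% of control cells, and the shallower subcluster 0 in 45.3% and 34.7%. At 1000 UMIs these gaps were gone, at 25.6% against 25.8% for Klrd1 and 17.9% against 18% for Klre1. Ncr1 was in 57.1% against 29.3% (22.1% against 16.2% at 1000 UMIs) and Klrg1 in 24.7% against 5.33% (7.54% against 2.57%), the same order at either depth. Klrc1 was in 71.4% and 74.1% of the cells of subcluster 4, whereas Klra7 was in 4.76% of its control cells and in 0 of its 27 anti-CTLA-4 cells. Crabp1, a gene of the cells without Ptprc, had 207 UMIs in control and 1 in anti-CTLA-4 NK-like cells, and its part in these results was not tested.

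The level of each gene in NK-like cells was then set side by side between libraries, calling a gene higher or lower at a point ratio of at least 2 or at most 0.5 with at least 20 UMIs. Of the 10 genes 9 had enough UMIs, and 1 was higher and 1 lower with anti-CTLA-4. Among all 6202 genes, 8.67% were higher and 8.32% lower, so these counts are close to the background. The median log2 ratio was -0.35 over the 9 members and 0.06 over all genes.

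The gene called higher was Klra4, from 0.0831 to 0.324 UMIs per 10000 (ratio 3.90, 1.45 to 11.5), on 7 and 13 UMIs. These just reach the minimum of 20, and at Leiden resolution 2.0 Klra4 fell below it and no member was called higher. The gene called lower was Klrg1, from 0.772 to 0.324 (ratio 0.420, 0.212 to 0.769), but without cells that hold a Cd3 UMI or a contig its ratio was 0.658 (0.318 to 1.25) and the call was lost. Klrc1 went from 3.88 to 5.71 (ratio 1.47, 1.24 to 1.75), below the 2-fold limit, and NK cells picked by UMIs alone gave 2.33 (1.92 to 2.82). Subcluster 4, led by Cd3e, Cd3g and Cxcr6, held 48 of the 327 control Klrc1 UMIs and 104 of the 229 anti-CTLA-4 ones. Its part in the Klrc1 ratio was not tested. Klra7 went from 2.04 to 1.17 (ratio 0.574, 0.406 to 0.796) and Klrk1 from 3.10 to 2.42 (0.780, 0.612 to 0.989). For Ncr1 (0.880, 0.691 to 1.11), Klrd1 (1.04, 0.824 to 1.30), Klre1 (0.756, 0.558 to 1.01) and Klrb1c (0.756, 0.415 to 1.32) the interval included 1.

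**Figure D3:**
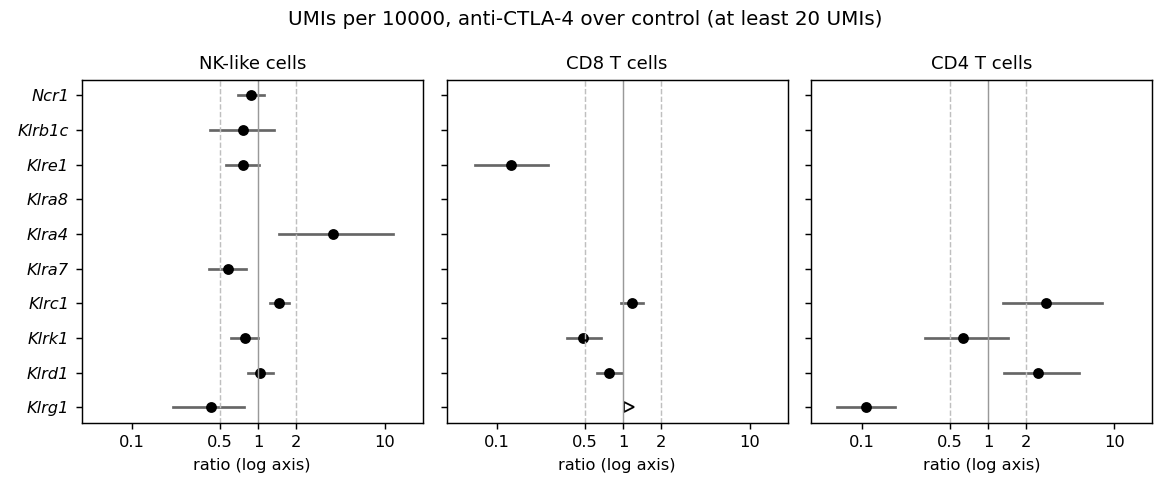
Ratio of UMIs per 10000 in the anti-CTLA-4 over the control library (horizontal log axis) for members with at least 20 UMIs in NK-like, CD8 and CD4 T cells, with exact 95% intervals for counting error. In NK-like cells the points run from 0.420 (Klrg1) to 3.90 (Klra4), and in CD4 T cells Klrg1 stands lowest at 0.108.

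Other gene lists were read in the same way, against the same 8.67% and 8.32% of all genes. Of 13 effector genes 12 had enough UMIs, with 2 higher and 3 lower. Gzma went from 102 to 30.7 UMIs per 10000 (ratio 0.303, 0.285 to 0.321) and Gzmb, both granzymes, from 30.3 to 4.64 (0.153, 0.131 to 0.177), while the chemokine Ccl5 went from 38.0 to 99.7 (2.62, 2.50 to 2.75). Of 18 maturation and residency genes 14 had enough, with 4 higher and 0 lower, among them Eomes (2.06, 1.73 to 2.45), Cxcr6 (6.45, 4.20 to 10.2) and Il7r (2.55, 1.5 to 4.37). The libraries also filled the subclusters unevenly, as given above. Over both libraries Gzma was in 88.8%, 92.5% and 90.5% of cells of subclusters 0, 1 and 2, and Gzmb in 52.5%, 90% and 49.2%. The part of the uneven filling in these ratios was not tested.

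Of 15 adapter and signalling genes, all with enough UMIs, 1 was higher and 1 lower, no more than the share over all genes. Hcst, the partner of Klrk1, was found in 43.7% of NK-like cells in the control and 73.3% with anti-CTLA-4 (level ratio 2.05, 1.65 to 2.55). Tyrobp, the partner of activating Ly49 receptors, was found in 89.5% and 83.8% (0.648, 0.587 to 0.716), and Fcer1g in 81.7% and 65.7% (0.580, 0.502 to 0.669). The phosphatase Ptpn6 was the gene called lower (0.477, 0.253 to 0.845). In CD8 T cells Hcst was in 47.1% and 77.1% of cells and Tyrobp in 2.94% and 1.99%, with an Hcst level of 2.30 and 5.55 UMIs per 10000. The adapter of NKG2D was thus frequent in both classes. Tyrobp was frequent in NK-like cells alone of the 2, but Tyrobp and Fcer1g are among the NK markers that named the cluster. Their high shares in NK-like cells are therefore partly set by how the class was made.

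Of 14 other NK receptors, 11 had enough UMIs, with Cd96 higher (2.10, 0.983 to 4.49) and Cd160 lower (0.408, 0.153 to 0.930). Il2rb, the chain through which interleukin 2 and 15 signal, was not past the limit (1.54, 1.41 to 1.69), nor was Tigit (1.43, 1.17 to 1.74). Of the 17 other Klr genes, 9 had enough UMIs, with 0 higher and Klrb1b and Klrb1f lower. Klrb1f had a ratio of 0.491 (0.276 to 0.828). Klrb1b rested on 18 and 3 UMIs, and 60.8% of its UMIs in all kept cells were in monocyte/macrophage-like cells. Klri2, a partner of Klre1, was at 1.80 (1.24 to 2.63), and Klra3 at 0.622 (0.465 to 0.821) with 85.0% of its 340 UMIs in NK-like cells. Klrc2, the activating relative of Klrc1, was in 17.9% and 30.5% of NK-like cells and in 13.2% and 21.8% of CD8 T cells. Klra2 was unlike the other Ly49 genes, with 76.2% of 533 UMIs in monocyte/macrophage-like cells.

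In CD8 T cells 3 of the receptors were common and the others rare. Klrd1 was in 28 of 68 control cells (41.2%, 29.4 to 53.8) and 304 of 652 anti-CTLA-4 cells (46.6%, 42.7 to 50.5). Klrc1 was in 23 (33.8%, 22.8 to 46.3) and 266 (40.8%, 37.0 to 44.7). Klrk1 was in 22 (32.4%, 21.5 to 44.8) and 164 (25.2%, 21.9 to 28.7). Intervals overlapped for each of the 3. At 1000 UMIs the shares were 19.8% and 19.6% for Klrd1, 20.1% and 26% for Klrc1 and 11.8% and 7.75% for Klrk1. Klre1 was in 11.8% of control cells (5.22 to 21.9) and 2.91% of anti-CTLA-4 cells (1.76 to 4.51), and Klrg1 in 0 of 68 and 2.91% (1.76 to 4.51). Ncr1 had no UMI in either.

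Of 5 members with at least 20 UMIs in CD8 T cells, 1 was higher and 2 lower with anti-CTLA-4, against 11.8% and 8.89% of 8270 genes. Klre1 was lower (ratio 0.128, 0.0671 to 0.252, on 17 control and 26 anti-CTLA-4 UMIs), and Klrk1 was lower (0.482, 0.356 to 0.665). The Klrk1 call was lost in cells with a beta chain, where the ratio was 0.578. Klrg1 counted as higher with 40 UMIs against 0, which with 3 UMIs in place of 0 is at least 1.12-fold, short of the limit. Klrc1 was at 1.16 (0.953 to 1.43) and Klrd1 at 0.772 (0.619 to 0.974).

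Clonotypes showed where in the CD8 T cells the receptors were. A clonotype is a set of cells with the same TCR, and it counted as expanded when at least 2 cells of the TCR library held it. The anti-CTLA-4 library had 225 CD8 T cells of 41 expanded clonotypes and 314 of unexpanded ones, with medians of 4287 and 4300.5 UMIs. Klrc1 was in 88.4% of expanded (83.5 to 92.3) and 12.4% of unexpanded cells (8.98 to 16.6). Klrd1 was in 71.1% (64.7 to 76.9) against 34.1% (28.8 to 39.6), and Klrk1 in 46.7% (40.0 to 53.4) against 14.3% (10.6 to 18.7). Klre1 was in 8% and 0%, and Klrg1 in 6.67% and 0.955%. At 1000 UMIs Klrc1 stood at 58.8% and 5.73%. The median depth of the groups was nearly equal.

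Cluster and expansion went together. Cluster 3 held 211 of the 225 expanded cells but 28 of the 314 unexpanded cells. Inside it, Klrc1 was in 93.4% of expanded (89.1 to 96.3) and 67.9% of unexpanded cells (47.6 to 84.1), and Klrd1 in 75.4% (69.0 to 81.0) and 64.3% (44.1 to 81.4). Klrk1 had the other order, 49.3% (42.4 to 56.2) against 71.4% (51.3 to 86.8). So within the cluster the Klrc1 gap was smaller, and the higher Klrk1 share of expanded cells over all clusters was not seen. The control had 7 expanded and 49 unexpanded CD8 T cells with a contig, with Klrc1 in 85.7% and 34.7%.

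Cells of 1 clonotype share their origin, so clonotypes were also counted singly. Of 27 clonotypes with at least 3 CD8 T cells (199 cells), each had a cell with Klrc1, 20 had it in every cell, and the lowest share was 66.7%. Klrd1 was found in all 27 with a median share of 77.8%, and Klrk1 in 26 with a median of 44.4%. Klre1 was found in 12 and Klrg1 in 7. In the largest clonotype, of 26 cells, Klrc1 was in 23, Klrd1 in 20, Klrk1 in 13, Klre1 in 3 and Klrg1 in 2. With each of the 41 expanded clonotypes weighted equally, the mean share for Klrc1 was 81.6%, and 36 of them had a cell with it.

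**Figure D4:**
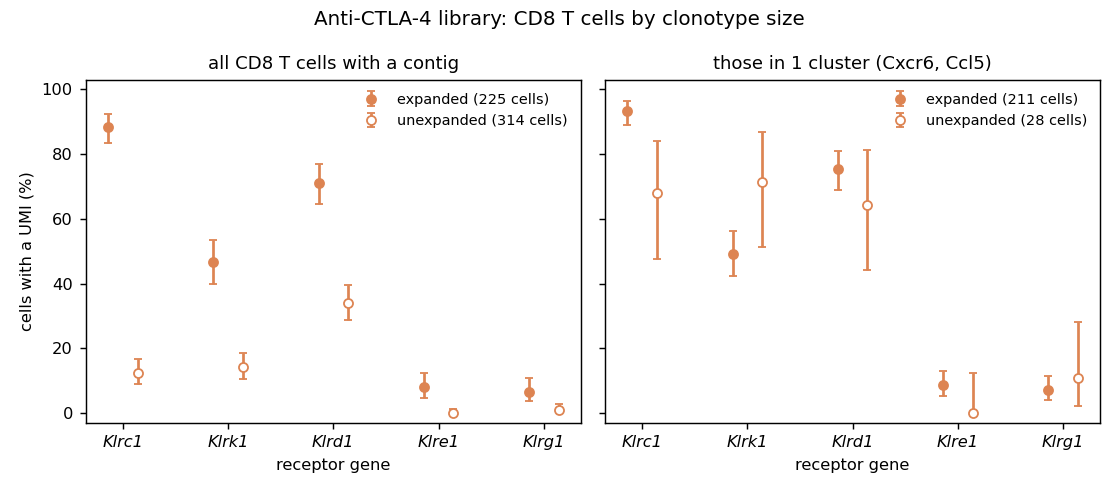
Share of anti-CTLA-4 CD8 T cells with a UMI of 5 receptor genes (vertical axis, %) in expanded and unexpanded clonotypes, over all clusters and within cluster 3, with exact 95% intervals for counting error. Klrc1 stands at 88.4% against 12.4% over all clusters and at 93.4% against 67.9% within cluster 3, where the order of Klrk1 is reversed.

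In CD4 T cells the receptors were less frequent. Klrd1 was in 6 of 73 control cells (8.22%, 3.08 to 17.0) and 124 of 591 anti-CTLA-4 cells (21.0%, 17.8 to 24.5). Klrc1 was in 5 (6.85%, 2.26 to 15.3) and 61 (10.3%, 7.99 to 13.1), and Klrk1 in 6 (8.22%, 3.08 to 17.0) and 46 (7.78%, 5.75 to 10.2). The intervals overlapped for Klrc1 and Klrk1 and lay apart for Klrd1, which stood at 3.50% and 8.75% at 1000 UMIs. How often such intervals lay apart over all genes was not computed, and median depth differed (2171 and 3593 UMIs). Of 4 members with at least 20 UMIs, 2 were higher and 1 lower with anti-CTLA-4, against 16.9% and 5.38% of 8137 genes. Klrc1 (ratio 2.89, 1.31 to 7.97) and Klrd1 (2.49, 1.34 to 5.25) were higher on 6 and 10 control UMIs, and Klrk1 was at 0.634 (0.316 to 1.44). The libraries also filled the T cell clusters differently, with 48 control and 650 anti-CTLA-4 T-like cells in cluster 3, where both genes were most frequent. Over all T-like cells of a cluster, CD8 T cells included, Klrd1 was not higher with anti-CTLA-4 in any of clusters 0, 3, 8 and 11. Its level was 3.78 (3.01 to 4.68) and 3.07 (2.88 to 3.26) in cluster 3 and 2.06 (1.37 to 2.98) and 1.17 (1.01 to 1.34) in cluster 8. Klrc1 stood at 4.68 (3.82 to 5.67) and 5.18 (4.94 to 5.43) in cluster 3 and at 1.62 (1.01 to 2.45) and 0.683 (0.565 to 0.819) in cluster 8. The part of CD8 T cells in these clusters differed by library. In cluster 8 they were 22 of 50 T-like cells in the control but 291 of 374 with anti-CTLA-4. In cluster 3 they were 24 of 48 and 269 of 650. Whether the levels of CD4 T cells alone differed between libraries inside a cluster was not tested.

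Expanded CD4 T cells of the anti-CTLA-4 library (137 cells of 64 clonotypes) had Klrd1 in 39.4% and Klrc1 in 19.7%, against 17.3% and 8.36% of 335 unexpanded cells. Their median depth was higher, 4488 against 3595 UMIs. Within cluster 3 the order was the other way, with Klrd1 in 43.9% of 123 expanded cells (35.0 to 53.1) and 59.6% of 89 unexpanded cells (48.6 to 69.8), and Klrc1 in 22.0% (15 to 30.3) and 31.5% (22.0 to 42.2). The higher share in expanded CD4 T cells was therefore not seen inside the cluster that held most of them.

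Klrg1 in CD4 T cells was found mainly in cells with Foxp3, the transcription factor of regulatory T cells. Over all CD4 T cells it was in 13.7% of control (6.77 to 23.8) and 2.88% of anti-CTLA-4 cells (1.68 to 4.57), with a level ratio of 0.108 (0.0642 to 0.183) on 28 and 37 UMIs. Of cells with a Foxp3 UMI, 7 of 17 in the control (41.2%, 18.4 to 67.1) and 13 of 45 with anti-CTLA-4 (28.9%, 16.4 to 44.3) held Klrg1. Of cells without one, 3 of 56 (5.36%, 1.12 to 14.9) and 4 of 546 (0.733%, 0.200 to 1.87) did. Cells with Foxp3 were 17 of 73 control and 45 of 591 anti-CTLA-4 CD4 T cells, so the share of such cells moved with the Klrg1 level. Within either Foxp3 group the intervals of the shares overlapped between libraries. Levels were set side by side in the 2 groups as well. With Foxp3 they were 1.92 (1.05 to 3.22) and 0.965 (0.664 to 1.36) UMIs per 10000, with overlapping intervals. Without Foxp3 they were 1.01 (0.550 to 1.69), from 14 UMIs in 3 control cells, and 0.0177 (0.00483 to 0.0453), from 4 UMIs in 4 cells. These intervals lay apart, but they count every UMI as independent, and 3 cells held all 14 control UMIs. A difference between the libraries is therefore not shown.

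In the anti-CTLA-4 library Klrc1, Klrk1 and Klrd1 were placed the opposite way. Klrc1 was in 1 of the 17 control Foxp3 cells and Klrk1 and Klrd1 in 0, and all 3 were in 0 of the 45 anti-CTLA-4 Foxp3 cells, which allows up to 6.67%. In anti-CTLA-4 CD4 T cells without Foxp3 they were in 11.2%, 8.42% and 22.7%. For Klrk1 the intervals with Foxp3 (0 to 7.87) and without (6.23 to 11.1) overlapped. Control cells without Foxp3 held the 3 genes in 7.14%, 10.7% and 10.7%, and 17 control Foxp3 cells are too few to set these apart.

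**Figure D5:**
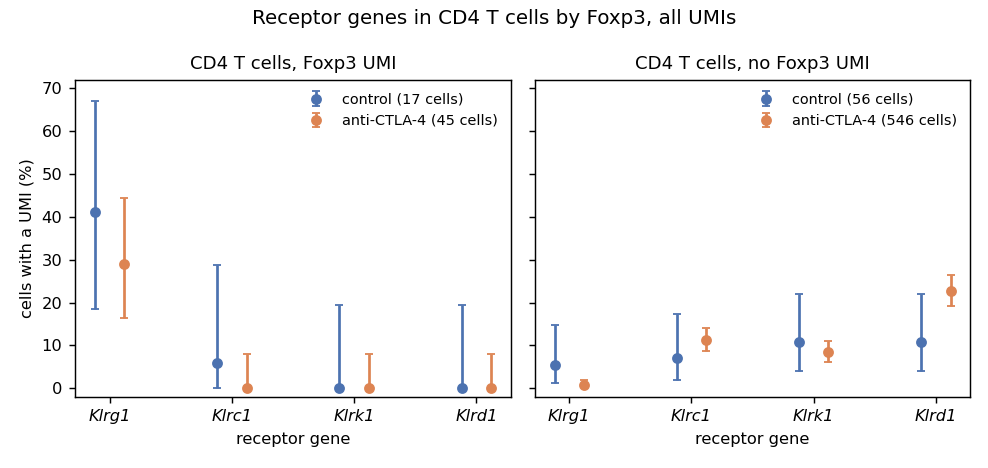
Share of CD4 T cells with a UMI of Klrc1, Klrk1, Klrd1 and Klrg1 (vertical axis, %), split by a Foxp3 UMI, for both libraries, with exact 95% intervals for counting error. Klrg1 stands at 41.2% and 28.9% in cells with Foxp3, where the other genes are at or near 0, and at 5.36% and 0.733% in cells without it.

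Gamma-delta T cells were few. Of 21 anti-CTLA-4 cells, Klrk1 was in 7 (33.3%, 14.6 to 57.0), Klrc1 in 5 (23.8%, 8.22 to 47.2), Klrd1 in 2 and Klre1 in 1, and the other 6 members in none. Of 4 control cells Klrk1 and Klrd1 were in 2 each. The intervals are too wide to order these cells against CD8 T cells. The same UMI rule applied to the NK-like clusters would add 9 cells in each library.

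Outside T and NK-like cells Klrk1 reached furthest. It was in 10.2% of 1113 control (8.44 to 12.1) and 2.64% of 454 anti-CTLA-4 monocyte/macrophage-like cells (1.37 to 4.57), where no other member passed 1% in either library. Dendritic-like cells had it in 14 of 32 (43.8%, 26.4 to 62.3) and 8 of 35 (22.9%, 10.4 to 40.1), at medians of 7801.5 and 8009 UMIs. An unnamed cluster led by Klk1, Cox6a2 and Siglech had Klrk1 in 12 of 31 and 7 of 15 cells and Klrd1 in 9 and 10. At 1000 UMIs, Klrk1 was at 3.47% and 0.696% in monocyte/macrophage-like cells and at 28.3% and 21.3% in NK-like cells.

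Genes for ligands were found in other classes. H2-T23, which encodes the ligand of CD94/NKG2A, was in 72.1% of the control cells without Ptprc and in 53.3% and 57.1% of NK-like cells. H60b and Ulbp1, ligands of NKG2D, were in 23% and 21.8% of control cells without Ptprc, and Cdh2, a cadherin, in 54.3%. These are deep cells (median 24323 UMIs), so such shares are not comparable with those of shallower classes. Cdh1, the epithelial cadherin, was in 56.1% and 74.2% of keratinocyte-like cells. In NK-like cells 6 of 13 ligand genes had enough UMIs and 0 were past 2-fold between libraries.

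Over 26 points, each a class in a library, the genes whose levels ran most like the summed level of the 10 receptors were Ctsw (Pearson r 0.917), Cd7 (0.892), Nkg7 (0.892), Cd27 (0.892) and Tigit (0.889), out of 11124 genes compared. The points share 2 libraries and their depth, so these are descriptions. Ctsw encodes cathepsin W and Nkg7 a granule protein, both of cytotoxic lymphocytes.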

How the data were processed

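Expression was measured in 2 droplet libraries (control and anti-CTLA-4) and TCR contigs in a paired library of each. The deposited expression matrices give raw, unscaled UMI counts for each gene in each barcode, and the deposited TCR tables give UMI counts per contig with the authors' clonotypes. Cell Ranger 5.0.0 and the builds mm10 and GRCm38 are named in the submitters' processing notes, while the annotation release is not given in the sources used here. Library totals were 86478313 and 19989467 UMIs, and having 1 library per group limits every comparison to counting error.

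A barcode was kept from 200 genes upward if mitochondrial genes took no more than 15% of its UMIs. Scrublet's own threshold marked 0 control cells and 1 anti-CTLA-4 cell, so it had not worked, and the highest-scored 240 (4.38%) and 133 (3.26%) were removed, the rate expected at 0.8% per 1000 barcodes. Both libraries were clustered together in scanpy 1.11.5 on log counts per 10000 without batch correction (2000 variable genes without Klr, Ncr1, receptor segment, mitochondrial and ribosomal genes, 30 components, 15 neighbours, Leiden resolution 1.0). Clusters were named "-like" when 3 or more markers reached 20% of cells and the mean log2 fold of the list was 1.0 or above, limits set after the data were seen. CD8 T cells had a Cd8a or Cd8b1 UMI and no Cd4, CD4 T cells the reverse, and gamma-delta T cells Trdc and Cd3 UMIs without Cd4, Cd8b1 or a contig. These names are rebuilt and may differ from the authors'.

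Shares have Clopper-Pearson, levels Poisson and ratios conditional binomial 95% intervals (scipy 1.17.1). Of these, only the ratio intervals were tested on simulated data, which were Poisson counts. Free RNA, the uneven spread of UMIs over cells and differences between mice are not in the intervals or in that simulation. Reduced shares are the exact expectation over all draws of 1000 UMIs without replacement, leave out cells below that depth and carry no interval. At that depth 208 and 100 NK-like, 61 and 638 CD8 and 69 and 582 CD4 T cells remained. A count of 0 was bounded with 3 counts. The text names all 10 members and, from each list, genes with the most UMIs or the ratio farthest from 1, with a few named after their values were seen. The members and lists were chosen with earlier results of these data known. Promoters are from RefSeq (GRCm38.p6), and gene coordinates, 1-based, from GENCODE M21 (GRCm38). Protein sequences were not used here. The settings varied were a mitochondrial share of 10%, a minimum of 500 genes, no doublet removal, Leiden resolutions of 0.5 and 2.0, reduction to 2000 UMIs, receptor genes kept for clustering, NK cells by UMIs, T cells by beta chain, another scaling and no UMI minimum.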

Additional observations from a re-analysis of the deposited data

How the results depend on the processing

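Of the main values recomputed under each alternative, 154 stayed within their interval or within 1.5 times, and 19 moved. Reduction to 2000 rather than 1000 UMIs raised detection by construction. In control and anti-CTLA-4 NK-like cells 91.3% and 92.1% then held a member, with means of 2.37 and 2.26 genes and both Klrd1 and Klrc1 in 17.6% and 24.1%. CD8 T cells stood at 52.3% and 51.6%, CD4 T cells at 35.1% and 21.5%, and Klrc1 in expanded anti-CTLA-4 CD8 T cells at 80.5%. The number of members higher with anti-CTLA-4 in NK-like cells was 2 for NK cells by UMIs and 0 at resolution 2.0, where Klra4 was no longer called. The number lower was 0 for NK cells by UMIs, without cells that hold a Cd3 UMI or a contig (a choice made after seeing the data), with receptor genes kept for clustering, and with at least 500 genes. The cause was not tested. In CD8 T cells 1 was lower among cells with a beta chain. The spread of mean members over NK subclusters went from 0.376 to 0.172 with subclusters made at resolution 0.5, which gave 4. Of single values, 811 held and 38 moved.

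No paired analysis was possible because each group has 1 library. Depth limits the rare members (Klra4, Klrb1c and Klrg1), the control T cells and the gamma-delta T cells most. Treatment, mouse and preparation cannot be told apart in any comparison between libraries.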
